A study of Rattus norvegicus with 15 samples.

Results

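The period genes Per1, Per2 and Per3 and the cryptochrome genes Cry1 and Cry2 encode the repressors of the mammalian circadian clock, and their RNA was followed here in rat liver across age and maternal calorie restriction. The 5 genes were chosen by symbol from 14506 named genes on the Affymetrix array, and each was read by 1 probe set that carries no other gene symbol. Liver came from male Sprague-Dawley offspring, 15 rats with 1 array each, in 5 groups of 3. Day 21 control rats (age 21 days) and day 450 control rats (age 450 days) were born to mothers given a control diet in pregnancy and suckling. Day 450 IUCR rats (intrauterine calorie restriction, age 450 days) had mothers cut by 50% of calories from embryonic day 11 to 21. Day 21 IPCR and day 450 IPCR rats (intrauterine and postnatal calorie restriction, ages 21 and 450 days) had mothers cut by 50% over those embryonic days and again from postnatal day 1 to 21. No IUCR group was taken at day 21. The restriction was applied to the mother, not to the pups directly, and the replicates are described as separate littermates with the number of litters not given. A difference between diets therefore cannot be told apart from a difference between mothers or litters. The labels do not give the hour at which livers were taken, and these transcripts change over the day, so any part that collection time has in the differences below was not tested.

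In the clock, the BMAL1 protein pairs with CLOCK or NPAS2, binds E-box sequences and switches on the Per and Cry genes. PER and CRY proteins then build up, enter the nucleus together and block that same activator, so that Per transcripts rise and fall once a day, out of phase with Bmal1. In liver the rhythm is also set by feeding, and Per1 and Per2 respond quickly to signals such as glucocorticoids and cyclic AMP.

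The E-box (CACGTG) and the E-prime box (CACGTT) are the letters that the activator recognises, and the D-box (TTATGNAA) is bound by DBP, TEF and the repressor NFIL3. The 250 bases before the RefSeq transcript start (assembly GRCr8) were searched on both strands for these 3 motifs, for the ROR half-site AGGTCA and for the cyclic AMP element TGACGTCA. Windows were held for 4 of the 5 genes, all but Cry1. The 2 windows with a match are shown 5' to 3' on the strand of the gene, with the matches in capitals. They are Per2 at chr9:99496994-99497243, minus strand, and Cry2 at chr3:98860438-98860687, minus strand.
Per2: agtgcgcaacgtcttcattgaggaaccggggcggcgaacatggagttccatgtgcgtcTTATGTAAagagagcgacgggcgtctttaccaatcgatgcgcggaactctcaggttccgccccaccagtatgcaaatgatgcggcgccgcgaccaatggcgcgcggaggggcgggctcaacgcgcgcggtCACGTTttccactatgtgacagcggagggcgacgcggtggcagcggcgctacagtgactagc
Cry2: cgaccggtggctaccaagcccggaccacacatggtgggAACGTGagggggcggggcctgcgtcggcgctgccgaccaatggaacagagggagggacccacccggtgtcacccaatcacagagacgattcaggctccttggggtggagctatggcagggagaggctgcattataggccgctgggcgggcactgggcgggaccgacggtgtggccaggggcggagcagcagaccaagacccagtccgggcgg
In Per2 the capitals mark a D-box (TTATGTAA, 192 to 185 bases before the start) and an E-prime box (CACGTT, 62 to 57 bases before the start). In Cry2 they mark an E-prime box on the opposite strand (AACGTG, 212 to 207 bases before the start). The Per1 and Per3 windows held none of the 5 motifs, which says only that these letters are not in those windows. Among 33469 promoter windows of the same length, 5.59% held the E-box, 4.07% the E-prime box, 3.28% the D-box, 14.1% the ROR half-site and 1.59% the cyclic AMP element.

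The arrays read liver RNA as labelled. Albumin (Alb), the main protein that hepatocytes secrete, lay between 13.99 and 14.75 on the log2 intensity scale on all 15 arrays, and array medians over all probe sets lay between 7.11 and 7.24. Every Per and Cry value lay above the lower quartile of probe sets on any array (at most 6.16), the lowest member value being Cry1 at 6.92. Values below are RMA log2 intensities, a scale on which a difference of 1 is a doubling, and a change was called where the limma p, adjusted by Benjamini and Hochberg over all 14506 genes, was below 0.05. SE is limma's moderated standard error, and intervals are 95% intervals for 1 gene, not adjusted for the number of genes.

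**Figure D1:**
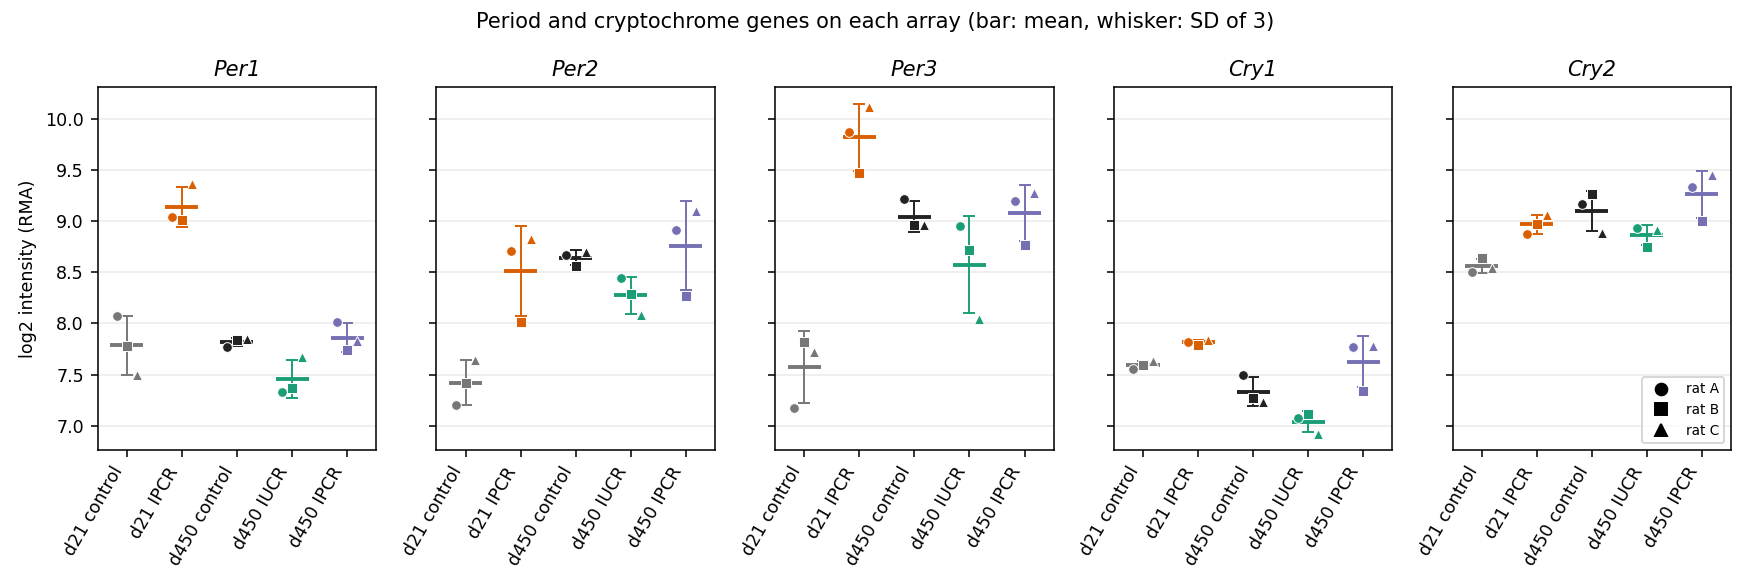
Log2 intensity (vertical axis) of the 5 genes in the 5 groups, with 1 point per rat, the bar at the mean of 3 and the whisker at the SD; the shape of a point is the replicate letter. Per1 and Per3 are highest in day 21 IPCR, and Per2, Per3 and Cry2 are lowest in day 21 controls.

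At day 21, all 3 period genes and Cry2 were higher in IPCR liver than in control liver, and Cry1 did not pass the test. Per3, whose protein is the less essential period protein of the clock, was 7.17, 7.82 and 7.72 in controls A, B and C and 9.87, 9.47 and 10.12 in IPCR A, B and C. The groups were far apart, with the lowest IPCR rat above the highest control by more than the whole range of either group. The log2 change was 2.24 (SE 0.23, limma adjusted p = 2.51e-05, 3 against 3 arrays), or 4.74-fold. Because these are whole-liver samples, a change in the cells that carry a transcript and a change in RNA per cell cannot be told apart.

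Per1, the period gene known for the fastest response to acute signals, was 8.08, 7.78 and 7.50 in controls and 9.04, 9.01 and 9.37 in IPCR rats. All 3 IPCR rats lay above all 3 controls, and the rise was 1.35 (SE 0.14, limma adjusted p = 2.51e-05), or 2.55-fold. Per2, the period gene that links the clock to metabolic cues, was 7.21, 7.42 and 7.64 in controls and 8.71, 8.01 and 8.83 in IPCR rats. IPCR rat B was the low member of its group and still lay above every control. The rise was 1.09 (SE 0.21, limma adjusted p = 0.00354), or 2.13-fold, and the Per1, Per2 and Per3 calls held when any array was left out.

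The cryptochromes, which are the stronger repressors of the activator, moved less. Cry2 was 8.50, 8.63 and 8.54 in controls and 8.87, 8.97 and 9.06 in IPCR rats, without overlap. Its rise was 0.41 (SE 0.11, limma adjusted p = 0.0345), or 1.33-fold. The Cry2 call was close to the threshold and was lost without any of the 6 arrays (limma adjusted p 0.0595 to 0.109), when all probe sets were tested (0.0597) and with the replicate letter as a block (0.0536). Cry1 was 7.56, 7.60 and 7.64 in controls and 7.82, 7.79 and 7.84 in IPCR rats. These values did not overlap and were tightly grouped (SD 0.04 and 0.02). The difference of 0.22 (SE 0.11, limma adjusted p = 0.239) did not pass, with an interval of -0.0067 to 0.45. The SE draws on the spread in all 5 groups. For Cry1 the SD was 0.14 in day 450 control, 0.10 in day 450 IUCR and 0.25 in day 450 IPCR rats. The interval of Cry1 lies below those of Per1 (1.06 to 1.64), Per2 (0.65 to 1.54) and Per3 (1.76 to 2.73); the differences between genes were not tested.

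Over all 14506 genes 2.63% were called higher at day 21 and 6.99% lower as deposited, and 5.4% and 5.8% after quantile normalization. Against that background 4 of the 5 period and cryptochrome genes were called higher and 0 lower. For non-overlap the members stood at 5 of 5 higher, where 14.6% of all genes did so (15.3% lower), and their median log2 change was 1.09 against 0.02 over all genes. The members were chosen with earlier results of these data known, so these counts are a description.

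Their regulators and fellow targets are given from lists of other pathway genes. Among the activators and their regulators, 2 of 7 measured genes rose and 4 fell at day 21 (median -0.42). Bmal1, the activator itself, was 9.01, 8.96 and 8.92 in controls and 6.77, 7.35 and 6.57 in IPCR rats. The rat with the highest Bmal1 among the IPCR rats, B, was the rat with the lowest Per1, Per2 and Per3. Bmal1 fell by 2.07 (SE 0.23) and Npas2, its partner, fell by 1.28 (SE 0.22), while Nr1d2, which represses Bmal1, rose by 0.66 (SE 0.09). Under quantile normalization 3 of the 7 fell and 2 rose.

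Of the other targets of the activator, 5 of 8 rose and 0 fell (median 0.76). Dbp, a transcription factor that drives D-box genes, was 8.41, 8.60 and 8.89 in controls and 10.87, 10.47 and 11.12 in IPCR rats. It rose by 2.19 (SE 0.21) and Tef, a related D-box activator, rose by 0.83 (SE 0.12). Noct, a rhythmic phosphatase once described as a deadenylase, rose by 3.14 (SE 0.34). Among the kinases, ubiquitin ligases and cofactors that act on PER and CRY proteins, 1 of 16 rose and 1 fell as deposited (median -0.05). After quantile normalization 3 rose and 0 fell (median 0.09), and after median centring 0 rose and 1 fell. This list, cofactors included, is shortened below to kinases and ligases.

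Signals that can induce Per genes were covered by 2 further lists. Of 16 glucocorticoid targets 4 rose and 2 fell at day 21 (median 0.43), and 6 rose and 2 fell under quantile normalization. Sds, a serine dehydratase induced by glucocorticoids and fasting, rose by 3.52 (SE 0.40), and Cdkn1a, a cell-cycle inhibitor, fell by 1.25 (SE 0.31). Of 14 CREB targets and immediate early genes 2 rose and 1 fell (median -0.06). This list, CREB targets included, is shortened below to immediate early genes. In it Ppargc1a, a coactivator induced by fasting, rose by 0.95 (SE 0.23) and Egr1, an immediate early transcription factor, fell by 1.70 (SE 0.21). Whether either signal plays a part in the rise of the period genes was not tested.

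Markers of other liver cells moved at the same time. Of 5 measured endothelial markers 3 fell in day 21 IPCR (1 under quantile normalization), and the list mean lay at 8.90 to 9.16 in controls and 8.49 to 8.87 in IPCR rats. Of 5 stellate cell markers 1 fell (1 rose and 1 fell under quantile normalization), with list means of 8.65 to 8.77 and 8.39 to 8.43. Of 6 macrophage markers 0 were called (9.08 to 9.78 and 9.08 to 9.23), and of 6 hepatocyte markers 1 rose (1 more fell under quantile normalization; 13.53 to 13.99 and 13.95 to 13.98). Of 4 cholangiocyte markers 1 rose (6.99 to 7.07 and 7.14 to 7.30), and none of the 4 T and NK, 2 B, 4 neutrophil and 4 red cell precursor markers was called. The part of other cell types in the period gene changes was not tested.

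**Figure D2:**
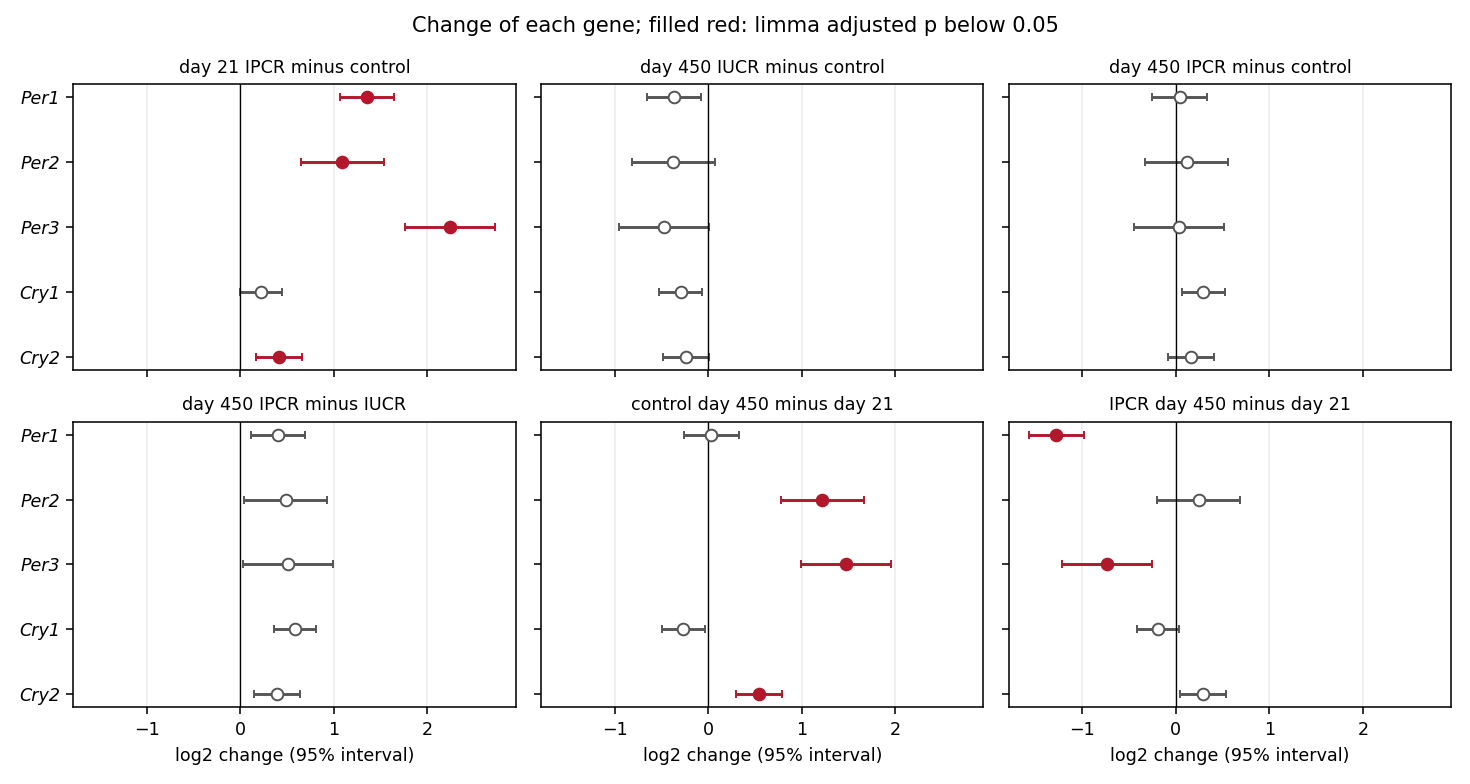
Log2 change (horizontal axis) of each gene with its 95% interval in 6 comparisons; filled red points passed limma at an adjusted p below 0.05. At day 21 all but Cry1 passed, at day 450 no gene passed in any of the 3 comparisons, and the age changes of Per1 and Per3 differ between control and IPCR rats.

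The day 450 IUCR and IPCR groups were each set against the same 3 control arrays, so these comparisons are not independent. At day 450, the period and cryptochrome genes stood lowest in IUCR liver, but no difference from control passed the test. Per1 was 7.77, 7.84 and 7.84 in day 450 controls and 7.33, 7.37 and 7.67 in IUCR rats, all IUCR rats below all controls. The difference was -0.36 (SE 0.14, limma adjusted p = 0.635, interval -0.65 to -0.07). Per2 was 8.67, 8.56 and 8.69 in controls and 8.44, 8.29 and 8.09 in IUCR rats, also without overlap. Its difference was -0.37 (SE 0.21, limma adjusted p = 0.729, interval -0.81 to 0.08).

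Per3 in IUCR rats was 8.95, 8.72 and 8.04, against 9.22, 8.96 and 8.96 in controls. The groups barely separated, since the highest IUCR rat (8.954) lay just under the lowest control (8.958), and IUCR rat C stood well below its group. The difference was -0.47 (SE 0.23, limma adjusted p = 0.691, interval -0.95 to 0.01), and it was -0.21 without IUCR C.

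Cry1 was 7.50, 7.27 and 7.23 in controls and 7.08, 7.12 and 6.92 in IUCR rats, without overlap. It differed by -0.29 (SE 0.11, limma adjusted p = 0.615, interval -0.52 to -0.06). Cry2 was 9.16, 9.26 and 8.88 in controls and 8.93, 8.75 and 8.91 in IUCR rats. Control C lay inside the IUCR range, so Cry2 was the only one of the 5 whose groups overlapped, and it differed by -0.24 (SE 0.11, limma adjusted p = 0.691, interval -0.48 to 0.01).

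The members thus stood at 0 of 5 called, where 0% of all 14506 genes were called with limma (1052 had an unadjusted p below 0.05). For non-overlap on the lower side they stood at 4 of 5, where 5.49% of all genes did so (5.68% higher). Bmal1 was 6.31, 6.53 and 6.62 in controls and 7.07, 7.45 and 7.99 in IUCR rats, a difference of 1.02 (SE 0.23, limma adjusted p = 0.458). Dbp differed by -0.65 (SE 0.21, limma adjusted p = 0.595). In each of the 5 pathway lists 0 genes were called, with medians of 0.28 for the activators and -0.20 for the other targets. The medians of the kinases and ligases (0.04) and of immediate early genes (-0.02) changed sign under quantile normalization, and that of glucocorticoid targets was 0.12.

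In day 450 IPCR liver no period or cryptochrome gene differed from control by the test, and the values of both groups overlapped for all 5. Per1 was 8.01, 7.74 and 7.83, Per2 was 8.91, 8.27 and 9.09, and Per3 was 9.20, 8.76 and 9.27 in IPCR rats A, B and C. Cry1 was 7.77, 7.34 and 7.78 and Cry2 was 9.33, 9.001 and 9.45 in the same rats. Rat B was the lowest of the 3 for each of the 5 genes, and it had the highest Bmal1 of its group (7.06, against 6.24 in A and 6.81 in C).

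The log2 differences from control were 0.04 for Per1 (SE 0.14, interval -0.25 to 0.33), 0.12 for Per2 (SE 0.21, interval -0.33 to 0.56) and 0.03 for Per3 (SE 0.23, interval -0.45 to 0.52). The direction of these differences is not settled: with the interquartile range of the arrays as a covariate they were -0.044, -0.070 and -0.060, and leaving out 1 array gave -0.036 to 0.10, -0.052 to 0.36 and -0.063 to 0.19. The 95% intervals leave out a change as large as the day 21 rise of each period gene. Cry1 differed by 0.29 (SE 0.11, limma adjusted p = 0.243, interval 0.07 to 0.52), and by 0.44 without IPCR B, when it passed (limma adjusted p = 0.0427). Cry2 differed by 0.16 (SE 0.11, interval -0.09 to 0.40), by 0.048 without control C, 0.062 without IPCR C and 0.29 without IPCR B, and by -0.059 with the covariate.

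As background, 0.0207% of genes were called higher and 0.0138% lower in this comparison, against 0 of 5 members in either direction. For non-overlap 12% of genes were higher and 5.76% lower, again against 0 of 5 members. In each of the 5 pathway lists 0 genes were called, with medians of 0.21 for the activators, 0.13 for the kinases and ligases and 0.05 for glucocorticoid targets. The medians of the other targets (0.07) and of immediate early genes (-0.04) changed sign under quantile normalization. Under median centring 1 of the immediate early genes was called lower. Bmal1 differed by 0.21 (SE 0.23) and Dbp by 0.10 (SE 0.21), neither of which passed. Noct was 6.24, 6.41 and 6.76 in controls and 8.82, 7.19 and 8.31 in IPCR rats, a difference of 1.64 (SE 0.34, limma adjusted p = 0.0875) that did not pass, although every IPCR rat lay above every control and rat B was again the lowest.

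The restricted groups at day 450 were also compared with each other, IPCR against IUCR. All 5 genes had higher means in IPCR than in IUCR liver, and none passed. Cry1 came closest: every IPCR rat (7.34 to 7.78) lay above every IUCR rat (6.92 to 7.12), and the difference was 0.59 (SE 0.11, limma adjusted p = 0.0951, interval 0.36 to 0.81). It ranked 9th by p among the 14506 genes, and without IPCR B the difference was 0.73 and passed (limma adjusted p = 0.00596).

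Per1 and Cry2 were also free of overlap between IPCR and IUCR, with differences of 0.40 (SE 0.14, limma adjusted p = 0.497) and 0.40 (SE 0.11, limma adjusted p = 0.422). Per2 (0.49, SE 0.21, limma adjusted p = 0.623) and Per3 (0.51, SE 0.23, limma adjusted p = 0.641) overlapped, with IPCR B inside the IUCR range for both. Without IPCR B the Per2 difference was 0.73 and without IPCR C it was 0.32, and without IUCR C the Per3 difference was 0.24. In all, 3 of 5 members did not overlap on the higher side, where 7.85% of genes did so (3.32% lower), and 0 of 5 were called, where 0.0345% of genes were called higher and 0.00689% lower. Bmal1 stood at -0.80 (SE 0.23, limma adjusted p = 0.422) and Dbp at 0.75 (SE 0.21, limma adjusted p = 0.395). The 5 pathway lists again held 0 called genes, with medians of -0.06 for the activators, 0.54 for the other targets, 0.09 for the kinases and ligases, -0.02 for glucocorticoid targets and -0.04 for immediate early genes.

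With age, control liver gained Per2, Per3 and Cry2 transcripts, while Per1 and Cry1 did not pass. Per3 rose by 1.47 between day 21 and day 450 (SE 0.23, limma adjusted p = 0.000562, 2.77-fold) and Per2 by 1.22 (SE 0.21, limma adjusted p = 0.00129, 2.33-fold). Cry2 rose by 0.54 (SE 0.11, limma adjusted p = 0.00629, 1.46-fold), and for these 3 genes every day 450 control lay above every day 21 control. The Per2, Per3 and Cry2 calls held when any array was left out.

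Per1 values of the 2 ages overlapped, with day 450 controls (7.77 to 7.84) inside the range of day 21 controls (7.50 to 8.08). The difference was 0.03 (SE 0.14, interval -0.26 to 0.33). Cry1 was the only one of the 5 with a lower mean in older controls, by -0.26 (SE 0.11, limma adjusted p = 0.150, interval -0.49 to -0.04), and its groups did not overlap. So 3 of 5 members were called higher, where 4.67% of genes were, and 0 lower, where 5.22% were. Without overlap 3 were higher and 1 lower, where 14.3% and 13.8% of genes were.

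Bmal1 went the other way in the same rats, falling from 8.92 to 9.01 at day 21 to 6.31 to 6.62 at day 450 (change -2.48, SE 0.23). Dbp rose by 2.84 (SE 0.21), from 8.41 to 8.89 up to 11.32 to 11.60. Of the activators and their regulators 2 of 7 rose and 3 fell (median -0.18; 2 rose and 2 fell under quantile normalization), and of the other targets 4 of 8 rose and 0 fell (median 0.81). Of the kinases and ligases 0 of 16 rose and 3 fell (median 0.01; 2 rose and 4 fell under quantile normalization). Of glucocorticoid targets 0 of 16 rose and 2 fell (median -0.17), and 3 fell under quantile normalization. Of CREB targets and immediate early genes 2 of 14 rose and 2 fell (median 0.07). In that list Ppargc1a fell by 1.64 (SE 0.23) and Egr1 fell by 1.34 (SE 0.21). Crem, whose products include the cyclic AMP repressor ICER, rose by 0.69 (SE 0.11). The Crem value is for the gene and does not separate its products. Of 5 stellate cell markers 3 fell between these ages (list means 8.65 to 8.77 and 8.01 to 8.18), and their part in the age changes was not tested.

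In IPCR rats Per1 and Per3 fell between day 21 and day 450. Per1 fell by 1.28 (SE 0.14, limma adjusted p = 7.07e-06), from 9.01 to 9.37 down to 7.74 to 8.01. Per3 fell by 0.74 (SE 0.23, limma adjusted p = 0.0233), a call that was lost without day 21 IPCR A (limma adjusted p = 0.0727), day 21 IPCR C (0.0930) or day 450 IPCR B (0.0918) and with the interquartile range of the arrays as a covariate (0.118). Per2 (0.24, SE 0.21, interval -0.20 to 0.69), Cry1 (-0.19, SE 0.11, interval -0.42 to 0.04) and Cry2 (0.29, SE 0.11, limma adjusted p = 0.0734) did not pass, and Cry2 passed without day 450 IPCR B (0.42, limma adjusted p = 0.0104).

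Far more genes moved with age in IPCR than in any other comparison, 18.3% higher and 9.78% lower as deposited, and 11.7% and 14.3% after quantile normalization. Against these, 0 of 5 members were called higher and 2 of 5 lower. Without overlap 3 of 5 were lower and 0 higher, where 17.1% and 23.5% of genes were. Bmal1 stood at -0.19 (SE 0.23, limma adjusted p = 0.580), and Dbp rose by 0.75 (SE 0.21). Of the activators and their regulators 3 of 7 rose and 0 fell (median 0.43; 2 and 0 under quantile normalization), and of the other targets 2 of 8 rose and 2 fell (median 0.31; 1 and 2 under quantile normalization, median 0.04).

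The list of PER and CRY kinases, ligases and cofactors stood at 7 of 16 called higher and 3 lower as deposited. After quantile normalization it stood at 2 higher and 7 lower. Timeless, named for its fly clock relative, fell by 0.50 (SE 0.09), Csnk1e, a kinase that marks PER proteins for breakdown, fell by 0.48 (SE 0.09), and Gsk3b, a kinase of CRY2 and other clock proteins, rose by 0.44 as deposited (SE 0.08). Of 16 glucocorticoid targets 1 rose and 8 fell (median -0.36), among which Sds fell by 2.18 (SE 0.40), Zbtb16 fell by 1.68 (SE 0.34) and Cdkn1a rose by 1.99 (SE 0.31). Of 14 immediate early genes 3 rose and 1 fell (median 0.01). Under quantile normalization 1 glucocorticoid target rose and 9 fell, and 4 immediate early genes rose and 2 fell. Of 5 endothelial markers 3 rose, and 2 under quantile normalization (list means 8.49 to 8.87 at day 21 and 9.03 to 9.18 at day 450). Of 6 macrophage markers 2 rose (2 fell under quantile normalization) and of 6 hepatocyte markers 2 fell (3 under quantile normalization). A single marker fell in each of the stellate, cholangiocyte, B, neutrophil and red cell precursor lists. The red cell precursor call was lost under quantile normalization, and the B and red cell precursor calls under median centring. Of 4 T and NK markers 0 were called (1 rose under quantile normalization), and the part of all these cell types was not tested.

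The difference between the IPCR effects at the 2 ages was tested directly, and it equals the age change in IPCR rats minus the age change in controls. It was called for Per3 (-2.21, SE 0.32, limma adjusted p = 0.00102) and Per1 (-1.31, SE 0.19, limma adjusted p = 0.00119), both calls holding when any array was left out. For Per2 it was -0.98 (SE 0.30, limma adjusted p = 0.0550), just outside the threshold. For Cry2 it was -0.25 (SE 0.16, limma adjusted p = 0.350, interval -0.60 to 0.09) and for Cry1 0.07 (SE 0.15, limma adjusted p = 0.792, interval -0.25 to 0.40). Over all genes 6.56% were called higher and 1.64% lower in this test, and 2.83% and 2.54% after quantile normalization, against 0 and 2 of 5 members as deposited and 0 and 4 of 5 after quantile normalization. Bmal1 stood at 2.29 (SE 0.33) and Dbp at -2.09 (SE 0.29), both called. Of the activators and their regulators 4 of 7 were higher and 1 lower in this test (median 0.64), and 3 higher and 1 lower under quantile normalization. Of the other targets 0 of 8 were higher and 3 lower (median -0.84). Of the kinases and ligases 1 of 16 was higher and 0 lower (median 0.16), and under quantile normalization 0 were higher and 0 lower (median -0.09). Of glucocorticoid targets 1 of 16 was higher and 1 lower (median -0.20), and 0 were higher and 2 lower under quantile normalization. Of 14 immediate early genes 0 were called, and 1 was higher under median centring. In the same test 3 of 5 endothelial markers (1 under quantile normalization; median 0.63) and 2 of 5 stellate cell markers (median 0.14) were higher, 1 of 4 cholangiocyte markers was lower, and none was called in the other marker lists. Their part in the difference was not tested. The mothers' restriction ran to postnatal day 21, so age and time since restriction cannot be told apart in this test. The same holds for the age change in IPCR rats.

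**Figure D3:**
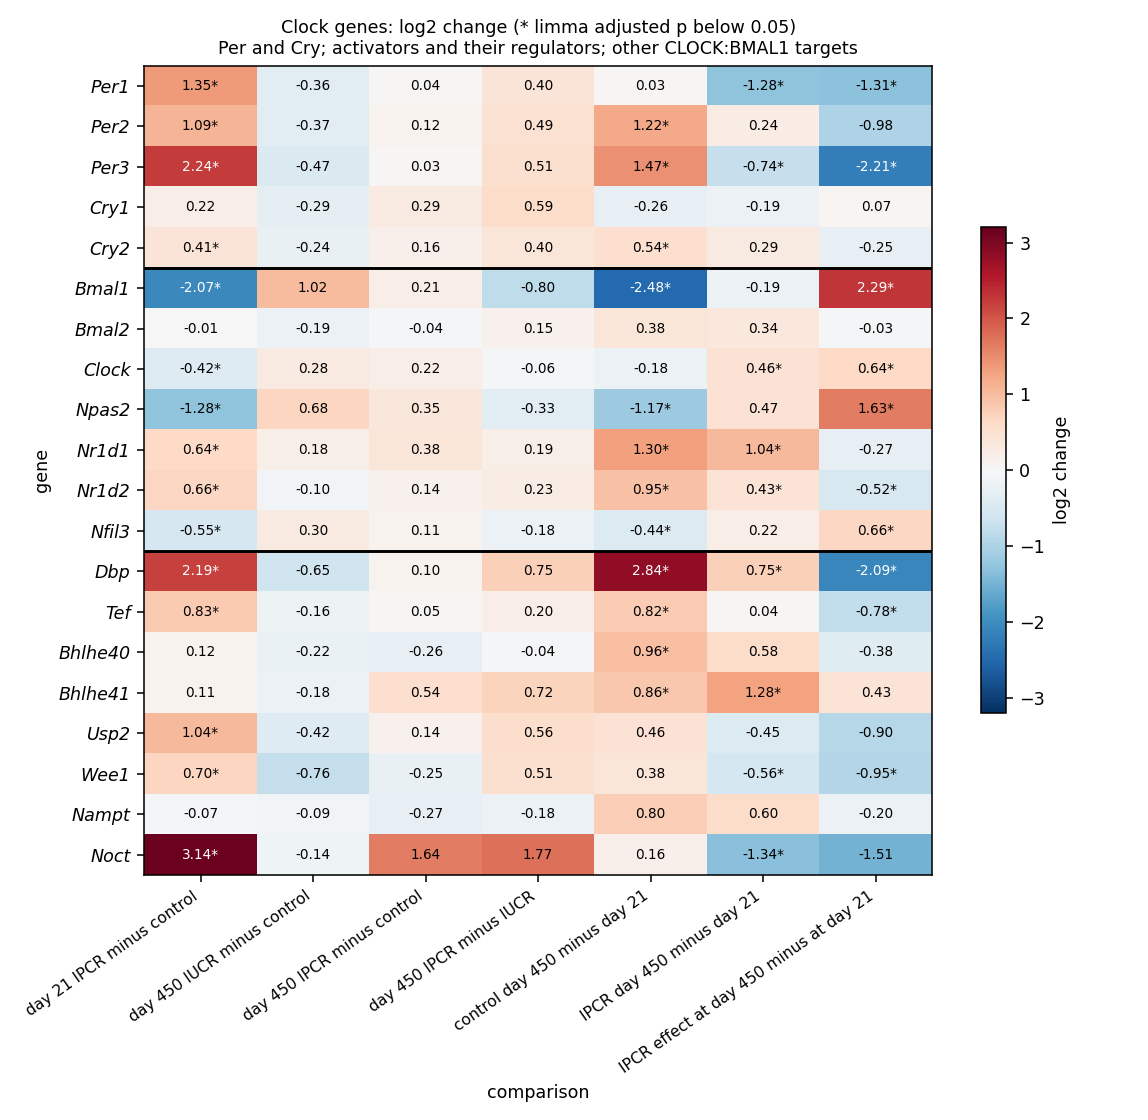
Log2 change of the 5 genes (top block), 7 clock activators and their regulators (middle block) and 8 other targets of CLOCK and BMAL1 (bottom block) in the 7 comparisons (horizontal axis), red for higher and blue for lower; a star marks limma adjusted p below 0.05. Per3 (2.24) and Dbp (2.19) are red and Bmal1 (-2.07) blue at day 21, and the columns of the day 450 diet comparisons hold no star.

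The order of levels across the 5 groups differed between genes, except that Per2 and Cry2 had the same order. Per1 was at 9.14 in day 21 IPCR (SD 0.20, n = 3), apart from all other groups, while day 450 IPCR (7.86, SD 0.14), day 450 control (7.82, SD 0.04), day 21 control (7.79, SD 0.29) and day 450 IUCR (7.46, SD 0.19) each overlapped with the next in the order. Per3 ran from day 21 IPCR (9.82, SD 0.33) through day 450 IPCR (9.08, SD 0.27), day 450 control (9.04, SD 0.15) and day 450 IUCR (8.57, SD 0.47) to day 21 control (7.57, SD 0.35), and only day 450 IPCR and day 450 control overlapped as neighbours. Per2 showed a different shape, with day 21 control (7.42, SD 0.22) alone at the bottom and day 450 IPCR (8.76, SD 0.43), day 450 control (8.64, SD 0.07), day 21 IPCR (8.51, SD 0.44) and day 450 IUCR (8.27, SD 0.18) overlapping as neighbours.

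Cry2 shared the shape of Per2. Day 21 control (8.56, SD 0.07) lay alone below day 450 IUCR (8.86, SD 0.10), day 21 IPCR (8.97, SD 0.09), day 450 control (9.10, SD 0.20) and day 450 IPCR (9.26, SD 0.23), which overlapped as neighbours. Cry1 was highest in day 21 IPCR (7.82, SD 0.02), followed by day 450 IPCR (7.63, SD 0.25), day 21 control (7.60, SD 0.04), day 450 control (7.33, SD 0.14) and day 450 IUCR (7.04, SD 0.10). For Cry1 only day 450 IPCR and day 21 control overlapped as neighbours. Across groups the means spanned 2.24 for Per3, 1.68 for Per1, 1.34 for Per2, 0.78 for Cry1 and 0.70 for Cry2, and the SD within groups, pooled over the 5 groups, was 0.33, 0.19, 0.30, 0.14 and 0.15 in the same order.

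Within groups, Per2, Per3 and Cry1 varied from rat to rat with Dbp and against Bmal1, while Per1 did not. Each value was taken as its deviation from the mean of its group, over 15 arrays, which share normalization and array quality; these correlations describe the arrays and carry no test. Deviations of Per3 ran with those of Dbp (r = 0.93, Spearman rho 0.85; r = 0.88 without the 2 arrays farthest from the median of Dbp) and against those of Bmal1 (r = -0.81, rho -0.70; r = -0.80 without 2 arrays). Per2 did likewise, at r = 0.84 with Dbp (rho 0.84) and r = -0.72 with Bmal1 (rho -0.59; r = -0.75 without 2 arrays), and at r = 0.80 with Per3 (rho 0.72).

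Cry1 deviated against Bmal1 at r = -0.63 (rho -0.69; r = -0.52 without 2 arrays) and with Dbp at r = 0.70 (rho 0.76). For Cry2 r was -0.30 with Bmal1 and 0.42 with Dbp (0.64 without 2 arrays), and it was 0.79 with Nr1d2 and 0.78 with Tef, where Cry1 had 0.70 and 0.66. These were not the closest genes: 230 genes had a higher r with Cry2 than Nr1d2 had, and 270 a higher one than Tef. Both counts include Cry2 itself. Tef also ran with Per2 (0.76) and Per3 (0.74), and r with Nr1d1 was 0.54 for Cry2 and 0.12 for Cry1. For Per1 r was -0.05 with Bmal1 and -0.23 with Dbp. It was -0.0034 with Per2 and -0.30 with Per3, and these were -0.42 and 0.22 without 2 arrays, so neither value was steady. The rat with the highest Bmal1 among IUCR rats, C (7.99), had the lowest Per2 (8.09) and Per3 (8.04) of its group and the highest Per1 (7.67).

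**Figure D4:**
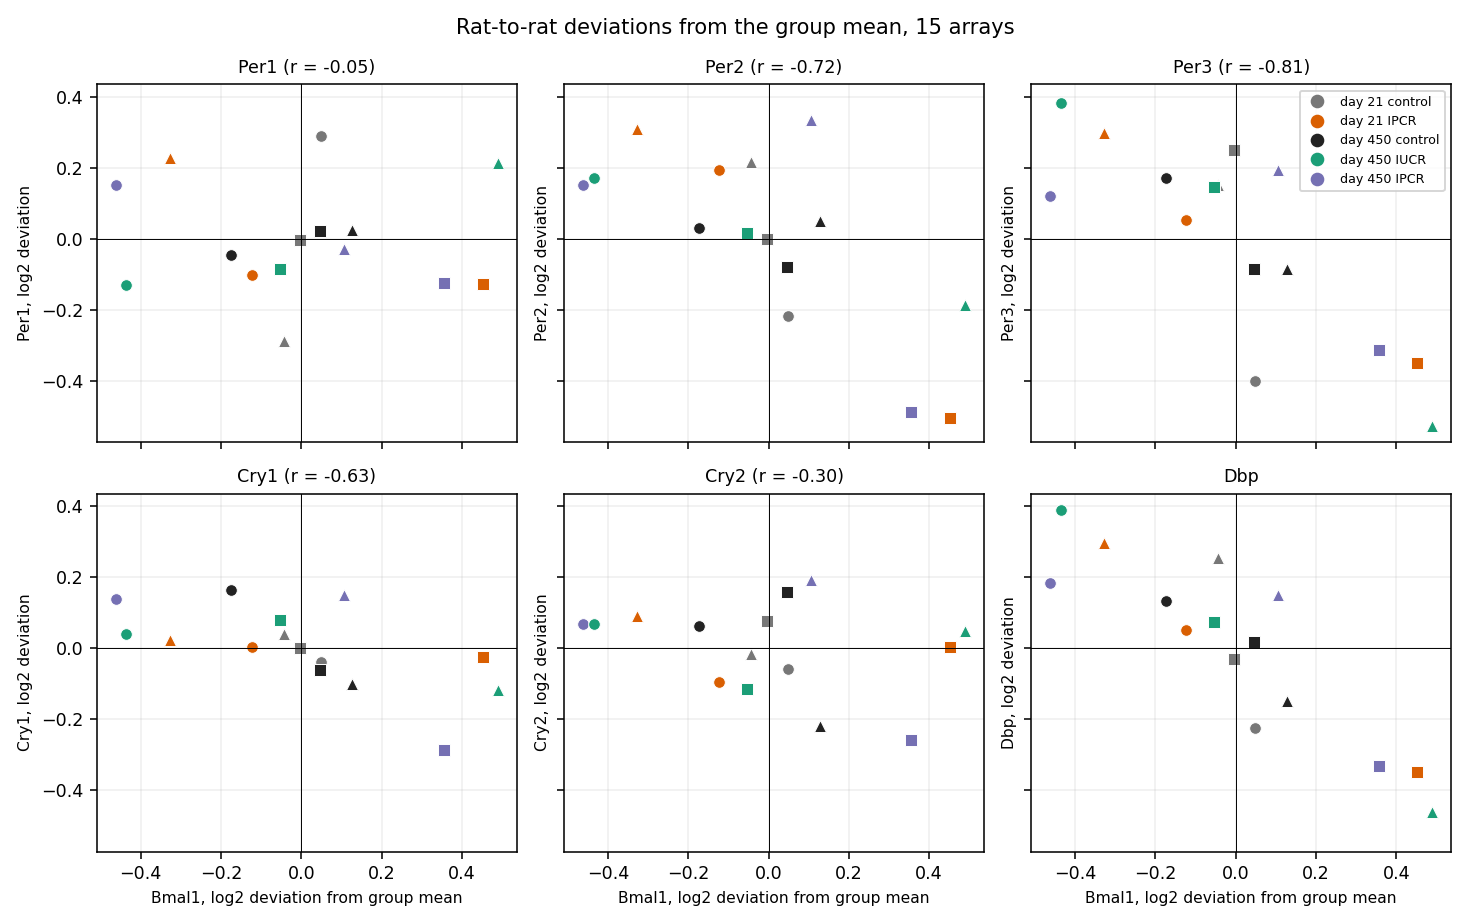
Deviation of each gene from its group mean (vertical axes, log2) against that of Bmal1 (horizontal axes, log2) on 15 arrays, coloured by group and shaped by replicate letter. Per2 (r = -0.72), Per3 (r = -0.81) and Dbp (r = -0.89) fall where Bmal1 is high within a group, and Per1 (r = -0.05) shows no such slope.

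Among the 7253 genes at or above the median level, those whose deviations were most like each member were ranked by r over the 15 arrays. For Per3 the closest was Dbp (r = 0.93), followed by Tpi1, a glycolytic enzyme (0.92), Cnpy4 (0.91), Fdx2 (0.86) and Naa20 (0.86), and the most opposite were Cmtm6 (-0.91), G6pc1, the catalytic unit that releases glucose from liver (-0.90), and Ypel2 (-0.87). For Per2 the closest were Ppp1r15b (0.88), Mllt1 (0.87), Ampd2 (0.86), Dbp (0.84) and Rprd1b (0.84), and the most opposite Xrcc2 (-0.81), Pdcd1 (-0.81) and Ihh (-0.79). Dbp was thus near the top for both Per2 and Per3.

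For Per1 the closest were Pc, the pyruvate carboxylase that starts glucose synthesis (0.93), rnf141 (0.89), Csnk1d, a kinase of PER proteins (0.88), Dnajc22 (0.87) and Klhl7 (0.87), and the most opposite Coro1a (-0.81), Lcp2 (-0.79) and Slfn4 (-0.79). For Cry1 they were Acy1 (0.91), Trim8 (0.90), Dynll1 (0.89), Erlin1 (0.88) and Zcchc17 (0.88), with Bbc3 (-0.87), Plin2, a lipid droplet coat protein (-0.86), and Elac1 (-0.86) opposite. For Cry2 they were Cnep1r1 (0.97), Ubac1 (0.97), Poldip3 (0.94), Mrpl41 (0.94) and Tafazzin (0.93), with Fndc11 (-0.92), Kcng2 (-0.91) and Aanat (-0.88) opposite. With 15 arrays and 7253 genes ranked, high values of r at the ends of the ranking carry little weight for any single gene.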

How the data were processed

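The authors' deposited values are log2 intensities from RMA in Affymetrix Expression Console, per the submitters' processing notes; no version is given. The table holds 29215 probe sets on 15 arrays, 0 values are missing, and arrays, not reads, set the precision. GEO's platform annotation gives 15310 probe sets a single symbol, and the probe set with the highest mean stood for a gene, leaving 14506 genes. Of these 14481 matched RefSeq (GRCr8) by identifier. limma 3.58.1 (lmFit and eBayes, under R 4.3.3) fitted 5 group means over all 15 arrays (10 residual degrees of freedom), with 7 contrasts and Benjamini-Hochberg adjustment over all genes. The code was tested on simulated data. Promoters come from RefSeq's GRCr8 windows. Scan dates are not in the labels, so batches were not tested, and p-values measure the spread between these littermates. How far that spread covers differences between mothers is not known, since the number of litters is not given.

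The members and lists were chosen with earlier results of these data known. The 5 members are named throughout, Bmal1 and Dbp beside them, and of each list (clock activators and regulators, other CLOCK and BMAL1 targets, PER and CRY kinases, ligases and cofactors, glucocorticoid targets, CREB and immediate early genes) the 3 genes with the smallest p in the comparison with the most calls. Ppargc1a, Egr1, Sds and Cdkn1a at day 21, Noct in day 450 IPCR, and Zbtb16 and Sds at day 450, were given outside that comparison after their values were seen. List genes beyond those counted as measured are not analysed here. Likeness was ranked as Pearson r of deviations from group means, leaving out locus numbers and smell and taste receptors. Alternatives were the mean of probe sets, quantile normalization, median centring, genes above the median level, all probe sets, trend and robust moderation, only the groups compared, a replicate block, a threshold of 0.10, the interquartile range as covariate and leaving out each array.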

Additional observations from a re-analysis of the deposited data

Results flagged for a closer look

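The effect of IPCR differed between the ages for Per1 and Per3 by a test of the difference itself (limma, 14506 genes). Restriction of the mothers ran to postnatal day 21, so age and time since restriction cannot be told apart. For Per1 the effect at day 450 minus that at day 21 was -1.31 (SE 0.19, limma adjusted p = 0.00119), from a 1.35 rise at day 21 and a difference of 0.04 at day 450. For Per3 it was -2.21 (SE 0.32, limma adjusted p = 0.00102), from 2.24 and 0.03. Bmal1 differed between the ages in the opposite direction (2.29, SE 0.33), and control rats differed between ages in Per3 (1.47) but not by the test in Per1 (0.03).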

How the results depend on the processing

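Of 583 values of the 5 genes under alternatives, 542 kept their direction and their side of the threshold, 12 lost a call, 12 gained one and 17 changed sign, the last all among differences that passed neither as reported nor under the alternative. With the interquartile range of the arrays as a covariate the day 450 IPCR values became -0.044 for Per1, -0.070 for Per2, -0.060 for Per3 and -0.059 for Cry2, the IPCR age changes -0.054 for Per2 and -0.058 for Cry2, and the difference of IPCR effects -0.13 for Cry1; 1 gene was then called for the IPCR age change in place of 2. Quantile normalization gave -0.073 for Per3 in day 450 IPCR and 4 genes called for the difference of IPCR effects in place of 2, Per2 (-1.16, limma adjusted p = 0.0347) and Cry2 (-0.46, limma adjusted p = 0.0477) being added. At an adjusted p below 0.10, 1 gene (Cry1) passed between IPCR and IUCR. Cry2 (limma adjusted p = 0.0734) was then added for the IPCR age change and Per2 (limma adjusted p = 0.0550) for the difference of IPCR effects. In that test Per2 also passed with genes above the median level only. The cause of these shifts was not tested.

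Leaving out each array in turn gave 3 called genes at day 21, 0 for IUCR, 0 to 1 for day 450 IPCR, 0 to 1 between IPCR and IUCR, 3 for the control age change, 1 to 2 for the IPCR age change and 2 to 3 for the difference of effects. Values that changed sign ranged from -0.036 to 0.10 for Per1, -0.052 to 0.36 for Per2 and -0.063 to 0.19 for Per3 in day 450 IPCR, -0.11 to 0.18 for Per1 in the control age change, -0.0076 to 0.49 for Per2 in the IPCR age change, and -0.00040 to 0.22 for Cry1 in the difference of effects.

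The labels do not say what the replicate letters mark. The deviations of arrays with the same letter correlated at -0.26 to 0.20 (median -0.01; 5 of 30 pairs over 0.1), so the letters were not taken as pairs. With the letter as a replicate block 3 genes were called at day 21 (Cry2 lost), 0 for IUCR, 0 for IPCR, 0 between them, 3 for the control age change, 2 for the IPCR age change and 3 for the difference of effects (Per2 gained, limma adjusted p = 0.0354); 4 of 15 arrays correlated best with their own letter.

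Likeness depends on the choice of measure. On values as they stand over 15 arrays, r with Per1 turned to -0.81 for Pc, -0.80 for rnf141, -0.81 for Dnajc22 and -0.41 for Klhl7, r with Per2 to 0.21 for Pdcd1 and 0.070 for Ihh, r with Per3 to -0.078 for Naa20, r with Cry1 to -0.075 for Erlin1 and r with Cry2 to 0.085 for Fndc11. Cry1 lies below the median level and was not tested in the fit limited to brighter genes. With 3 arrays a group, SEs of 0.11 to 0.23 limit what can be seen at day 450.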

Other observations

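Zbtb16, a glucocorticoid-induced zinc finger gene, was 9.06, 9.21 and 10.73 in day 450 IUCR rats A, B and C, against 8.01 to 8.37 in day 450 controls and 7.90 to 8.27 in day 450 IPCR rats. All 3 IUCR rats lay above both other groups, and rat C, which had the lowest Per3 and the highest Bmal1 of its group, was the highest. The difference from control was 1.51 (SE 0.34, limma adjusted p = 0.458) and did not pass. Zbtb16 was named here after its values were seen. Of the 16 glucocorticoid targets 0 were called in this comparison (median 0.12). At day 21 Zbtb16 lay at 9.52 to 10.37 in controls and 9.51 to 10.21 in IPCR rats.

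Among day 450 IPCR rats, Sds was 9.90, 7.70 and 9.18 in rats A, B and C, against 7.44 to 7.78 in day 450 controls, so that rat B lay within the control range and the other two above it. Noct was lowest in the same rat, B (7.19), and so were all 5 period and cryptochrome genes.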
